A study of Mus musculus with 12 samples.

Results

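The genes described here are 9 feedback and response genes of fibroblast growth factor (FGF) signalling, namely Spry1, Spry2, Spry4, Spred1, Spred2, Dusp6, Etv4, Etv5 and Il17rd. They were taken as every probe set that the platform annotation gives to exactly one of these symbols, which left all 9 genes of 18194 named on the array pair, with 28 probe sets of 45265, 15 on array A and 13 on array B. No probe set with several symbols held one of these genes. The tissue was the autopod, the hand or foot plate of the limb bud, dissected from wild-type mouse embryos at E12.5. Hindlimb samples 12, 14 and 26 were set against forelimb samples 11, 13 and 25, each hybridised to an Affymetrix MOE430 A and a MOE430 B GeneChip, so that 12 arrays carried 6 numbered samples. Strain, sex, litter and pooling are not stated in the sources used here, and p-values here cover no more than the variation among these 6 samples. For forelimb 11 on array A the labels give the limb through the letter in its title alone.

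FGF ligands made by the apical ectodermal ridge, the epithelium at the rim of the limb bud, act on receptors in the mesenchyme beneath it and drive outgrowth through the Ras-ERK kinase relay. The relay switches on the ETS transcription factors Etv4 and Etv5, and also its own inhibitors: Sprouty and Spred proteins, which act on Ras and Raf, Dusp6, a phosphatase that inactivates ERK, and Il17rd, also known as Sef, a membrane protein. For that reason transcripts of these genes are widely used as a readout of FGF signalling in the limb bud.

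Signals are MAS5.0 intensities brought to a 2% trimmed mean of 500 on every array. The B arrays were multiplied by 7.14 for this and the A arrays by 1.43, so levels are not compared between designs, nor between probe sets. Differences are given as hindlimb minus forelimb in log2(signal + 32), with n = 3 in each limb; the added constant makes changes of weak signals look smaller than they are. A probe set was tested if 3 or more of the 6 arrays of its design gave it a scaled signal of 100 or above. Limb labels were checked with Tbx5, a forelimb T-box factor, with signals of 8.0 to 13.9 in hindlimb and 474.0 to 554.6 in forelimb, and with Pitx1, a hindlimb homeobox factor, with 478.0 to 678.1 in hindlimb and 99.0 to 159.8 in forelimb. Another Tbx5 probe set read 29.3, 173.8 and 29.7 in hindlimb 12, 14 and 26, and 1145.1 to 1380.9 in forelimb. Tbx4, the hindlimb T-box factor, had 4497.3 to 5557.8 in hindlimb and 1124.1 to 1251.3 in forelimb on array B. Of 6 mesenchyme markers all passed the filter on array A (summed signal 9794.1 to 12022.2 in hindlimb, 11230.2 to 12285.1 in forelimb). Of 7 ridge and ectoderm markers on that array 5 passed, while Fgf8 and Sp6, which define the ridge, stayed under 100 on every A array. Another probe set of Sp6, on array B, read 477.1 to 575.6 in hindlimb and 384.2 to 762.0 in forelimb.

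Of the 28 probe sets 23 were tested, 11 of 7 genes on array A and 12 of 6 genes on array B. None differed between the limbs at an adjusted p under 0.05 in limma (Benjamini-Hochberg over all probe sets of a design). That is 0 of 11 on array A, where 0.0326% of all 15338 tested probe sets passed, and 0 of 12 on array B, where 0.0117% of 17145 passed. At an unadjusted limma p under 0.05 there was 1 on each array, Spry1 on array A and a Spred2 probe set on array B, against 5.54% of all tested probe sets on either design. All hindlimb samples lay below all forelimb samples for 1 of the 11 A probe sets (Spry1), against 6.10% of all those tested, and above them for 0, against 4.94%. Among the 12 B probe sets there were 0 of either kind, against 6.14% below and 4.81% above over all those tested. Most differences lay below 0, 9 of 11 on array A with a median of -0.09 and 9 of 12 on array B with a median of -0.11. Over all tested probe sets 52.2% were below 0 on each design, and the medians were -0.009 on array A and -0.014 on array B. Several of these probe sets belong to one gene and share its transcript, so they are not independent of each other. The unadjusted 95% interval of the difference lay within a 2-fold change either way for 11 of 11 probe sets on array A and 11 of 12 on array B, and within 1.5-fold for 9 and 6.

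**Figure D1:**
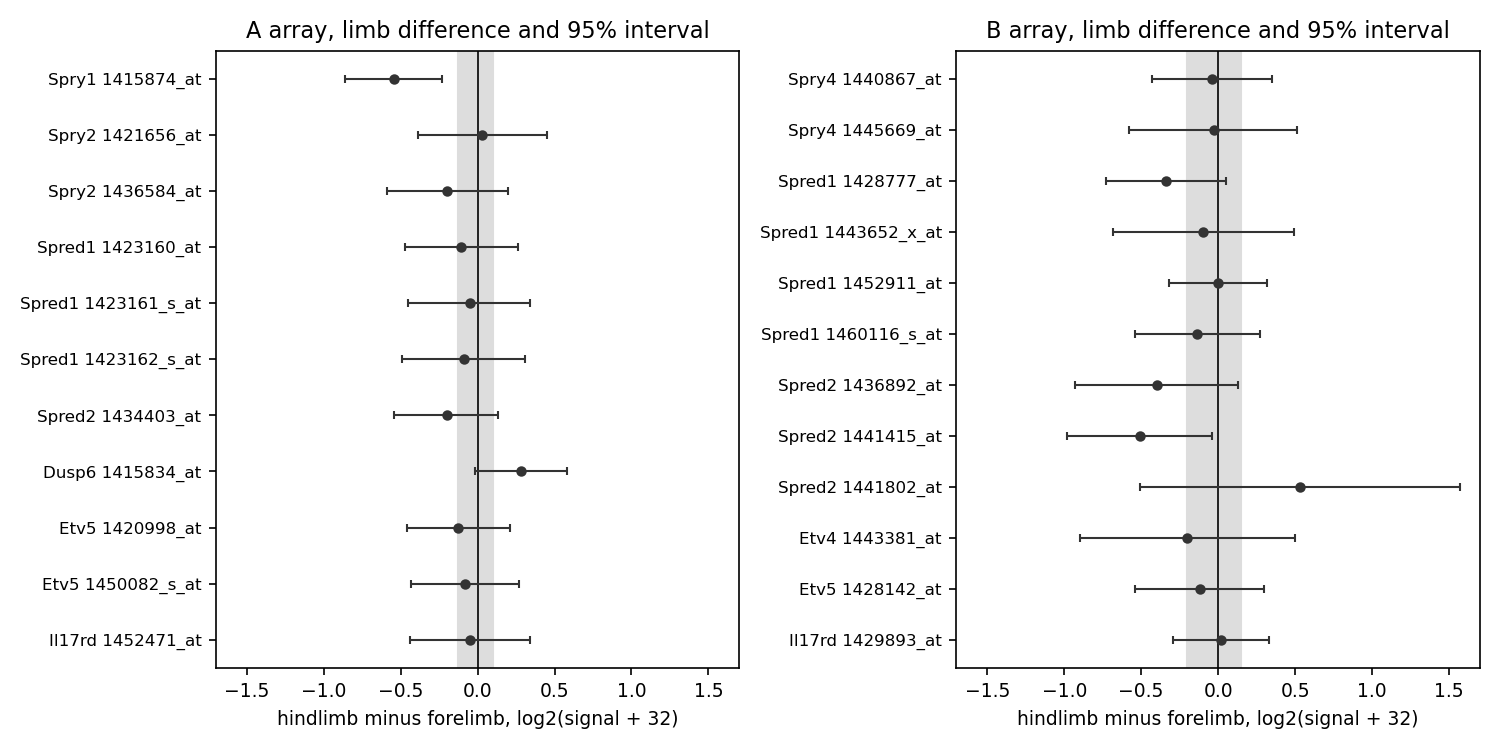
Limb difference of each tested probe set, hindlimb minus forelimb in log2(signal + 32), with limma's unadjusted 95% interval (n = 3 per limb); the grey band holds the middle 50% of all tested probe sets of the design. On array A the intervals cross 0 for every probe set but Spry1, and on array B for every one but Spred2 1441415_at.

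Spry1, a Sprouty inhibitor of receptor tyrosine kinase signalling, stood lowest in hindlimb relative to forelimb among the A-array probe sets. Its signals on 1415874_at were 541.3, 480.3 and 449.7 in hindlimb 12, 14 and 26, against 671.8, 676.5 and 848.9 in forelimb 11, 13 and 25. All 3 hindlimb samples lay below all 3 forelimb samples, and forelimb 25 stood above the other two of its limb. The mean was 490.4 ± 46.6 in hindlimb and 732.4 ± 100.9 in forelimb (SD, n = 3 each), a difference of -0.54 ± 0.14 (SE) with a limma adjusted p of 0.498 over all probe sets. This corresponds to a hindlimb to forelimb ratio of 0.685, with an unadjusted 95% interval of 0.551 to 0.852. By p it ranked 89 of 15338. Other measures moved with it on the same array. Summed signals of the ridge and ectoderm markers were 2751.5 to 3310.3 in hindlimb and 3410.0 to 4472.5 in forelimb, those of cartilage markers (3 of 4 passed the filter) 2354.9 to 3342.6 in hindlimb and 4058.8 to 4696.9 in forelimb, and those of erythroid markers (3 of 3 passed) 30929.5 to 33843.8 in hindlimb and 27418.0 to 30039.2 in forelimb. The log2 ratio of 3' to 5' Gapdh signal, a sign of RNA quality, was -0.30 to -0.26 in hindlimb and -0.24 to -0.08 in forelimb. For beta-actin the same ratio overlapped between the limbs, with 0.22 to 0.27 in hindlimb and 0.12 to 0.26 in forelimb. Within these lists the limbs parted for Krt14 and Krt5 among the ectoderm markers, for Col2a1 and Acan in cartilage and for Hbb-y among the erythroid genes, and overlapped for the rest. Without the keratins, a split made after the values were seen, the ectoderm sum was 1439.7 to 1648.8 in hindlimb and 1306.9 to 1669.2 in forelimb. The part of these measures in the Spry1 difference was not tested, and in such whole tissue fewer expressing cells and less RNA per cell cannot be told apart.

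Dusp6, the cytoplasmic ERK phosphatase, went the other way from Spry1. Its probe set 1415834_at read 1408.3, 1826.2 and 1915.9 in hindlimb 12, 14 and 26, and 1422.4, 1336.6 and 1423.2 in forelimb 11, 13 and 25. Hindlimb 14 and 26 lay above every forelimb sample, while hindlimb 12 fell within the forelimb range, so the limbs overlapped. The difference was 0.28 ± 0.13 (SE; limma adjusted p = 0.923), a ratio of 1.22 with an unadjusted 95% interval of 0.99 to 1.5. The 3 forelimb samples were close together, with a mean of 1394.1 ± 49.8 (SD), against 1716.8 ± 270.9 in hindlimb.

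Spry1 and Dusp6 are the members at the lower and upper end of the A-array differences, and their promoters are shown for reference. Sequences are RefSeq's, build GRCm38.p6, the 250 bases before the annotated start on the plus strand, at chr3:37639697-37639946 for Spry1 and chr10:99262981-99263230 for Dusp6. Capitals mark GGAA or its reverse complement TTCC, the core that ETS factors such as Etv4 and Etv5 bind.
Spry1: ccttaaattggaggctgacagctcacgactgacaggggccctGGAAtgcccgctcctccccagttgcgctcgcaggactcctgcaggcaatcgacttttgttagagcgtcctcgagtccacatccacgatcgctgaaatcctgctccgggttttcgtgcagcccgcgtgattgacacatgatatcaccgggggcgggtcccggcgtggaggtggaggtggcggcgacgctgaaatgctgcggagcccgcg
Dusp6: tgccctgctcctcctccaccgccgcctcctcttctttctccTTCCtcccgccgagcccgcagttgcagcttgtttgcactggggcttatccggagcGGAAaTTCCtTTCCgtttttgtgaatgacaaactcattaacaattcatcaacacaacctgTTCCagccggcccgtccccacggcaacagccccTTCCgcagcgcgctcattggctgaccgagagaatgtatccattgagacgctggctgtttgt
In the window of 250 bases before to 50 after the start, the Spry1 promoter held 1 such core and that of Dusp6 held 6, all within the stretch shown. Of 32851 RefSeq promoter windows of this length 96.0% held at least 1 on either strand, with a median of 3 and quartiles of 2 and 5. Windows were read for 7 of the 9 genes, 8 in all with a pair for Etv5, and none for Spry4 or Etv4. Windows on 1 chromosome were left out by rule, which need not account for both. Spred1 had 5 cores, Spred2 7, Il17rd 4, Spry2 5 and Etv5 0 and 6. Longer motifs were searched on both strands as well: the ETS motif CCGGAAG, which contains the core and occurs in 8.86% of all windows, the AP-1 motif TGACTCA (5.2%) and the cyclic AMP response element TGACGTCA (1.79%). None of these was present in the 8 windows. A match or its absence in these windows describes the letters only.

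Spry2, a second Sprouty inhibitor, was measured by a bright and a dim probe set on array A. On 1436584_at its signals were 553.7, 389.7 and 590.0 in hindlimb, against 562.5, 499.1 and 699.4 in forelimb. Hindlimb 14 was the lowest of the 6 samples and forelimb 25 the highest, and the other 4 lay between with both limbs mixed. The difference was -0.20 ± 0.18 (SE; limma adjusted p = 0.972), and it was -0.02 without hindlimb 14 and -0.07 without forelimb 25. On 1421656_at the signals ran from 122.7 to 161.7 in hindlimb and from 111.0 to 170.5 in forelimb, with a difference of 0.03 ± 0.19. Both probe sets put 5 of the 6 samples on the same side of their own mean.

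Spry4, the other Sprouty gene measured, could be tested on array B only. Both A probe sets stayed under 100 on every array, with 10.4 to 81.5 in hindlimb and 14.1 to 85.5 in forelimb. On array B 1440867_at gave 666.3, 714.2 and 539.9 in hindlimb and 732.8, 674.2 and 569.2 in forelimb. The limbs overlapped, and hindlimb 26 and forelimb 25 were the lowest samples. The difference was -0.04 ± 0.18 (SE; limma adjusted p = 0.986), with an unadjusted 95% interval of -0.43 to 0.35. Probe set 1445669_at gave -0.03 ± 0.25, and its highest sample was hindlimb 14 (367.8, against 238.5 to 312.8 in the rest of the samples).

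Il17rd, the membrane inhibitor, gave nearly the same mean in both limbs on each design. On array B 1429893_at read 2291.1, 3070.3 and 2570.4 in hindlimb and 2842.5, 2631.1 and 2330.4 in forelimb. Hindlimb samples were both the highest and the lowest. The difference was 0.02 ± 0.14 (SE; limma adjusted p = 0.992), a ratio of 1.01 with an unadjusted 95% interval of 0.816 to 1.26. On array A 1452471_at gave 182.1, 160.5 and 168.8 in hindlimb and 180.4, 139.8 and 218.2 in forelimb, with a difference of -0.05 ± 0.18. Its highest and lowest samples were both from forelimb. Although the same 6 numbered samples were on both designs, the probe sets of Il17rd put only 2 of 6 on the same side of the mean.

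**Figure D2:**
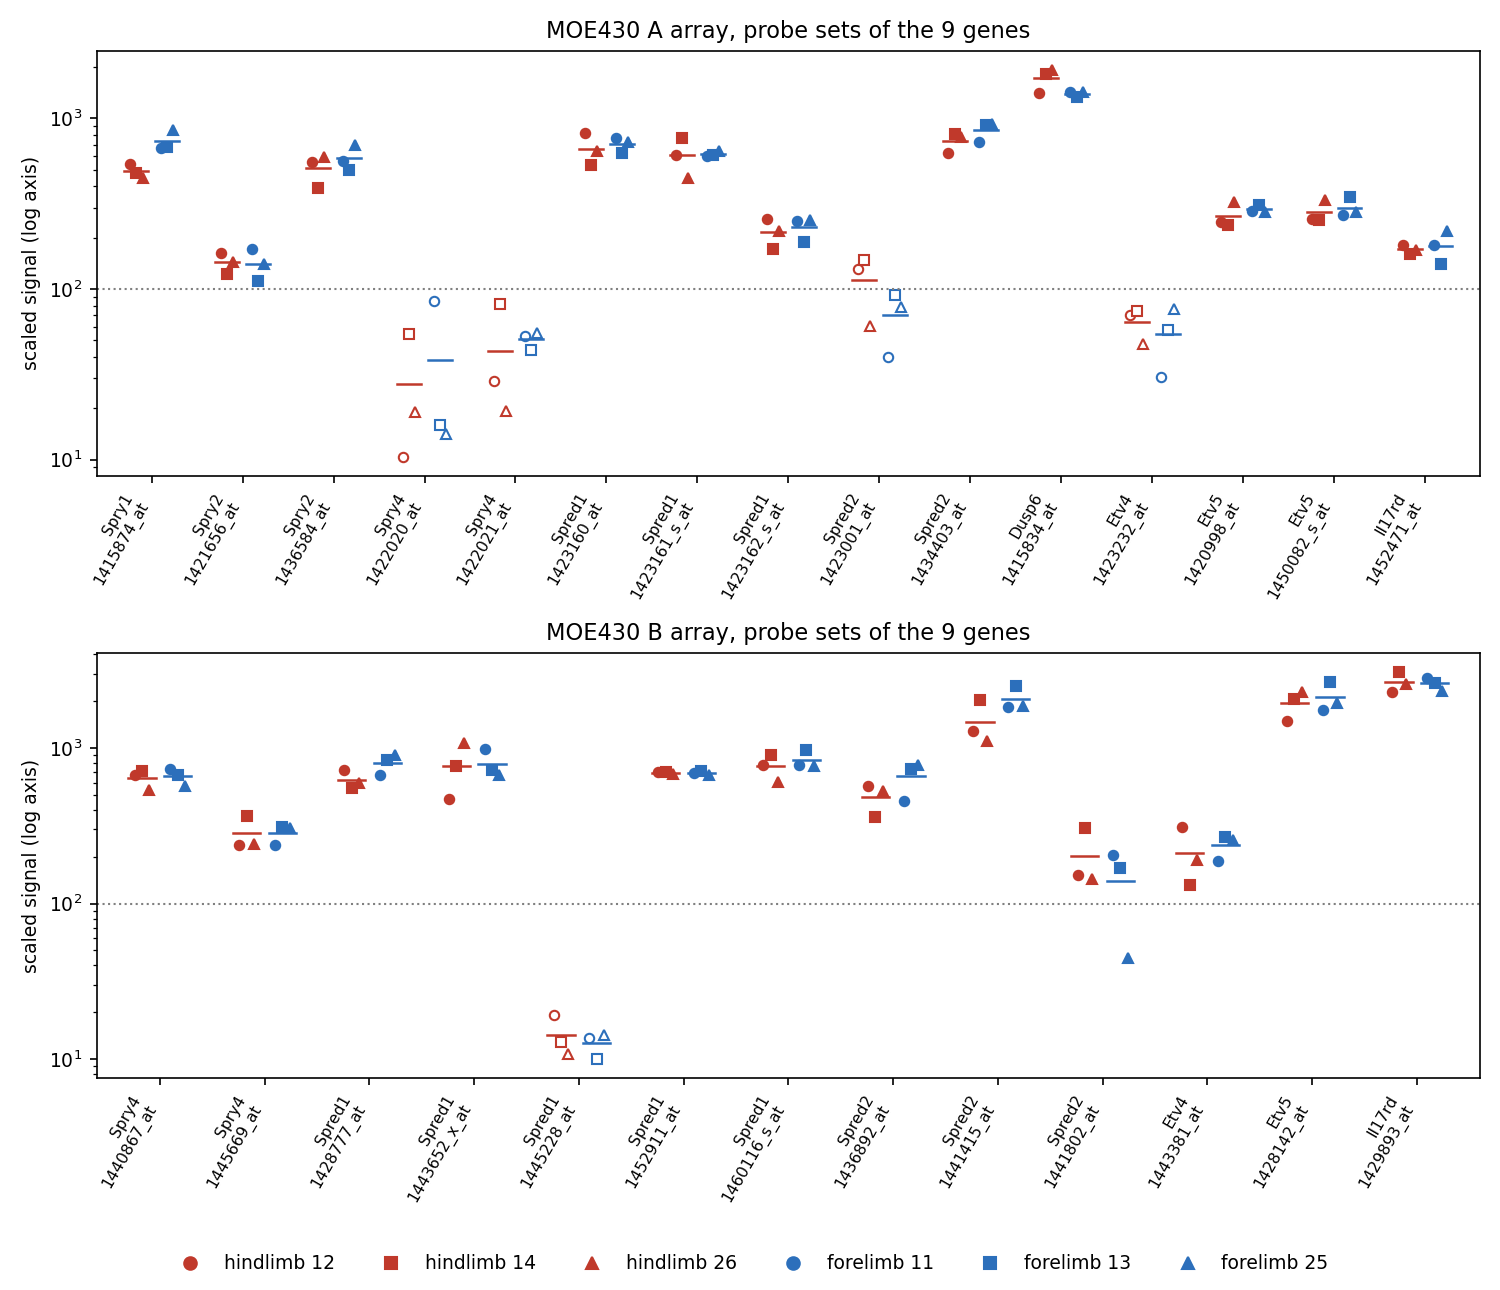
Scaled signal of each of the 28 probe sets on a log axis, 1 point per sample (hindlimb red, forelimb blue; symbols give the sample number) with a bar at each limb's mean; open symbols are probe sets that were not tested and the dotted line is the signal of 100. Only Spry1 on array A has all hindlimb points below all forelimb points among the tested probe sets.

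Spred2, an inhibitor related to the Sproutys that acts on the step from Ras to Raf, had 5 probe sets whose readings parted. On 1441415_at of array B the signals were 1290.5, 2031.9 and 1104.9 in hindlimb 12, 14 and 26, against 1840.5, 2494.0 and 1859.0 in forelimb 11, 13 and 25. Hindlimb 12 and 26 lay below all forelimb samples, and hindlimb 14 lay among them. The difference was -0.51 ± 0.21 (SE), with an unadjusted p of 0.0368 in limma and an adjusted p of 0.894. With 1 sample left out it ran from -0.76 (without hindlimb 14) to -0.33 (without hindlimb 26). The unadjusted limma p was 0.103 without hindlimb 12, 0.158 without hindlimb 26 and 0.144 without forelimb 13. It was 0.0016 without hindlimb 14, 0.0396 without forelimb 11 and 0.0433 without forelimb 25 (limma adjusted p = 0.637, 0.971 and 0.975). A second B probe set, 1436892_at, read 572.1, 360.0 and 526.4 in hindlimb and 459.2, 734.2 and 779.2 in forelimb (-0.40 ± 0.24, limma adjusted p = 0.904). With 1 sample left out the difference ran from -0.63 without forelimb 11 to -0.21 without hindlimb 14. Here hindlimb 14 was the lowest sample, although it was the highest hindlimb sample on 1441415_at. The A probe set 1434403_at read 622.1, 812.3 and 775.3 in hindlimb and 722.8, 913.5 and 923.7 in forelimb (-0.20 ± 0.15, limma adjusted p = 0.963). Hindlimb 12 was the lowest there and the limbs overlapped. Probe set 1441802_at of array B, with a difference above 0, read 153.6, 307.8 and 142.8 in hindlimb and 206.4, 170.0 and 44.3 in forelimb (0.53 ± 0.47, limma adjusted p = 0.929), and this difference rested on hindlimb 14 and forelimb 25. Without hindlimb 14 it was 0.22, and without forelimb 25 it was 0.02. On 1423001_at of array A, not tested, the means were 113.1 in hindlimb and 70.2 in forelimb with overlapping limbs.

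Spred1, the other Spred inhibitor, had 8 probe sets, of which 7 were tested, with differences from -0.34 to 0.00. The lowest was 1428777_at on array B, with 724.9, 554.2 and 597.1 in hindlimb and 668.5, 838.5 and 902.0 in forelimb (-0.34 ± 0.18, limma adjusted p = 0.904). Forelimb 11 lay below hindlimb 12 and kept the limbs from parting. Probe set 1452911_at, annotated to the same sequence record, gave 699.9, 697.8 and 677.8 in hindlimb and 690.6, 712.1 and 670.6 in forelimb. Its highest signal was 1.06-fold its lowest, and its SD within limbs was 0.03 on the log2 scale, against a median of 0.27 over all tested B probe sets. The 3 A probe sets come from a single sequence record and had differences of -0.11, -0.05 and -0.09. A pair of them, 1423160_at and 1423162_s_at, put 6 of 6 samples on the same side of the mean, with hindlimb 14 lowest (530.3 and 171.2). On 1423161_s_at hindlimb 14 was the highest sample (768.9) and hindlimb 26 the lowest (446.7). Across all 21 pairs of the 7 tested Spred1 probe sets, the number of samples on the same side ran from 0 to 6 with a median of 3. The remaining probe set, 1445228_at, had a signal of 19.3 at most in hindlimb and 14.3 at most in forelimb and was not tested.

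Etv5 and Etv4, the ETS factors induced by the relay, showed no difference past the threshold either. Etv5 was read by 2 A probe sets and a B probe set, with differences of -0.13 ± 0.15, -0.08 ± 0.16 and -0.12 ± 0.19 (SE; limma adjusted p = 0.982, 0.995 and 0.958). On 1428142_at of array B the signals were 1495.5, 2074.0 and 2278.3 in hindlimb 12, 14 and 26, and 1766.9, 2662.5 and 1942.6 in forelimb 11, 13 and 25. Forelimb 13 was the highest sample and hindlimb 12 the lowest, with the other 4 mixed between them. The A probe set 1450082_s_at also had forelimb 13 highest, at 346.8, and put 5 of 6 samples on the same side of the mean as the B probe set did. For Etv4 the A probe set stayed under 100 on every array (47.8 to 74.4 in hindlimb, 30.6 to 76.5 in forelimb). On array B 1443381_at read 310.7, 132.1 and 189.3 in hindlimb and 187.8, 267.8 and 254.3 in forelimb, a difference of -0.20 ± 0.32 with an unadjusted 95% interval of -0.90 to 0.50. Hindlimb samples held both ends of that range.

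Agreement of the genes within each sample was read from the deviation of the log2 value from its mean over the 6 arrays of a design, with the brightest tested probe set of each gene. On array A the median deviation of the 7 genes was -0.13, -0.17 and -0.02 in hindlimb 12, 14 and 26, and 0.05, -0.10 and 0.22 in forelimb 11, 13 and 25. The median over all tested probe sets was between -0.017 and 0.024 in each of these samples. No sample had all 7 genes on one side. Forelimb 25 had 5 genes above their means and 4 genes at their highest (Spry1, Spry2, Spred2 and Il17rd), while hindlimb 14 had 5 below and 3 at their lowest (Spry2, Spred1 and Etv5). Dusp6 was below its mean in forelimb 25 (-0.11) and above it in hindlimb 14 (0.24), against the majority in each. Spry1 and Dusp6 fell on the same side in 1 of 6 samples, hindlimb 12, as did Dusp6 with Spred1 and with Il17rd in 1 sample each. Pairs without Dusp6 reached the same low count, namely Etv5 with Il17rd, Etv5 with Spred1, and Spred2 with Spry2. The pairs that agreed most were Il17rd with Spred1, in 6 of 6 samples, and Spry2 with each of them, in 5 of 6. Over the 21 gene pairs the mean was 2.76 of 6 samples on the same side, against 3.01 over all pairs of tested probe sets.

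**Figure D3:**
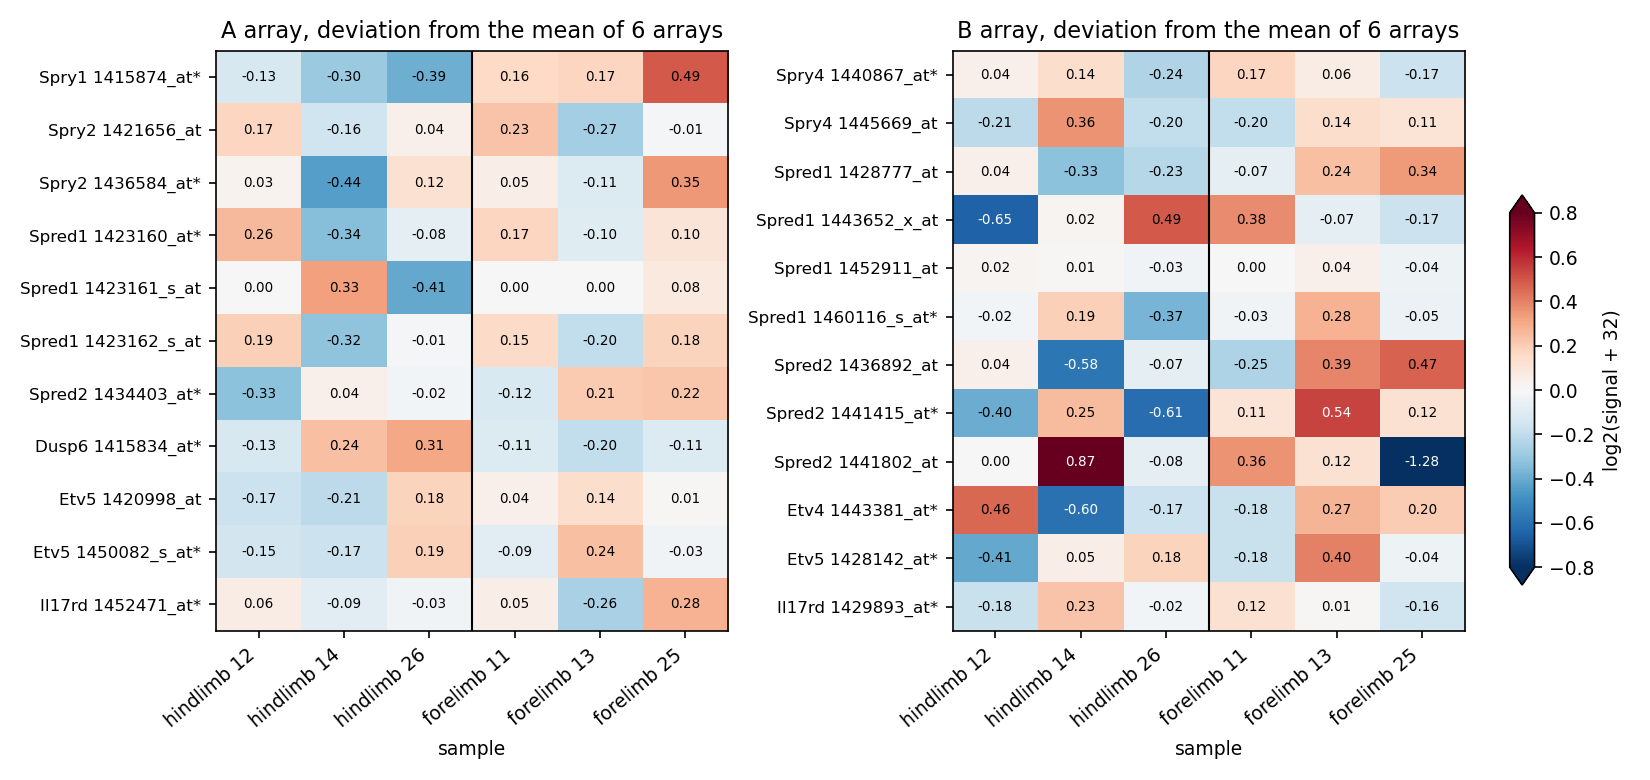
Deviation of each tested probe set in each sample from its mean over the 6 arrays of the design, in log2(signal + 32); red is above and blue below the mean, colours stop at 0.8, and an asterisk marks the brightest tested probe set of a gene. No column of array A is of one colour across genes, and in forelimb 13 of array B all but 1 of the 12 probe sets are above their mean.

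On array B the 6 genes tested agreed more often, and around other samples. Forelimb 13 had all 6 genes above their means, with deviations of 0.01 to 0.54 and a median of 0.28, and 3 genes at their highest (Spred1, Spred2 and Etv5). Hindlimb 26 had 5 of 6 below, with a median of -0.21, and hindlimb 14 had 5 of 6 above, with a median of 0.16. The median over all tested probe sets lay between -0.006 and 0.046 in these arrays. Over the 15 gene pairs the mean was 3.67 of 6 samples on the same side, against 3.01 over all pairs of tested probe sets, and Il17rd shared its side with Spred1, Spred2 and Spry4 in 5 of 6 each. Not all samples kept their side between designs. Hindlimb 14, with 5 of 6 genes above their means here, had 5 of 7 below on array A, and forelimb 13 had 3 of 7 above there. Forelimb 25, with 5 of 7 above on array A, had 2 of 6 above on array B. Hindlimb 12 and 26 had most genes below on both designs, with 4 of 7 each on array A and with 4 of 6 and 5 of 6 on array B. For the 4 genes tested on both designs, the brightest probe sets put the numbered samples on the same side in 5 of 6 for Etv5 and Spred2, in 2 for Il17rd and in 1 for Spred1.

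The rest of the pathway was read from lists of its other genes, with the brightest tested probe set of each. None of the 47 listed genes tested on array A or the 19 on array B passed the limma threshold in either direction, and 4 and 3 had an unadjusted p under 0.05, where 5.54% of all tested probe sets did on each design. All hindlimb samples lay above all forelimb samples for 3 listed genes on array A and 2 on array B (4.94% and 4.81% of all tested probe sets), and below them for 3 and 1 (6.10% and 6.14%). Of the FGF ligands 6 of 17 passed the signal filter on array A and 3 of the 5 present on array B, with median differences of -0.12 and 0.21. Fgf7, a ligand of mesenchyme, had -0.42 ± 0.23 (SE) on array A and -0.65 ± 0.38 on array B (limma adjusted p = 0.94 and 0.904), and Fgf9 had -0.24 on array A and 0.21 on array B. Receptors and their partners had medians of -0.16 over 6 genes on array A and 0.06 over 7 on array B. Fgfr2 had -0.30 ± 0.14, with 1557.7, 1928.1 and 1570.1 in hindlimb and 2427.1, 1966.6 and 1881.6 in forelimb, and Fgfr3 had -0.29 ± 0.17. On array B Flrt3, a membrane partner of FGF receptors, was the one with all hindlimb samples above, at 2226.1, 2330.4 and 2369.7 in hindlimb and 1725.5, 1388.4 and 1878.3 in forelimb (0.48 ± 0.14, limma adjusted p = 0.775). Its relative Flrt1 had all hindlimb samples below (-0.37 ± 0.16, limma adjusted p = 0.894).

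Genes of the relay itself had medians near 0, while single genes on array A ran from -0.29 (Gab1) to 0.20 (Map2k2). On array A 7 of 14 were positive and 7 negative, with a median of -0.07, and Gab1 (-0.29 ± 0.18) and Sos1 (-0.25 ± 0.17), an adaptor and an activator of Ras, had the smallest p. On array B the 4 tested had a median of 0.00, with Ksr1, a scaffold, at -0.17 and Braf, a kinase, at 0.02. Other negative regulators had medians of 0.01 over 11 genes on array A and 0.05 over 5 on array B. Among them Dusp9, an ERK phosphatase like Dusp6, had 280.8, 395.5 and 378.6 in hindlimb and 227.1, 273.3 and 277.5 in forelimb (0.39 ± 0.16, limma adjusted p = 0.863). Spred3, the third Spred gene, had 397.1, 422.1 and 477.8 in hindlimb and 220.7, 308.5 and 360.0 in forelimb (0.52 ± 0.22, limma adjusted p = 0.894). In both, all hindlimb samples lay above all forelimb samples. In this list on array A that held for 2 of 11 genes and the order of Spry1 for 1, and on array B for 1 of 5 and 0. Lrig1 (-0.62 ± 0.29) and Cbl (-0.08 ± 0.12) overlapped between limbs. Further transcriptional targets of ERK had a median of -0.10 over 10 genes on array A and none tested on array B. Spsb1 (-0.42 ± 0.13, limma adjusted p = 0.633) and the early response gene Fos (-0.39 ± 0.17, limma adjusted p = 0.873) had all hindlimb samples below all forelimb samples.

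**Figure D4:**
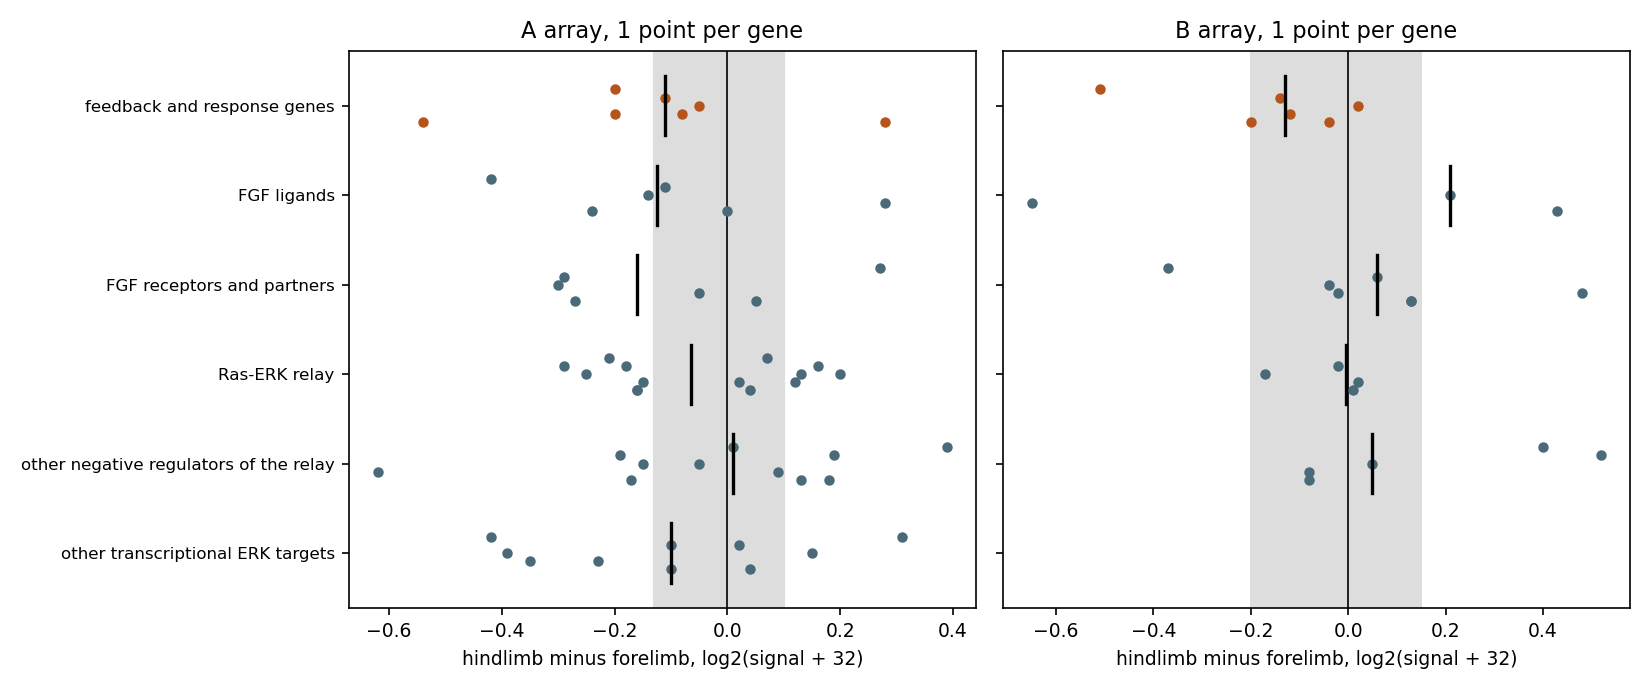
Limb difference of the feedback and response genes (top, brown) and of 5 further FGF pathway lists, hindlimb minus forelimb in log2(signal + 32), 1 point per gene by its brightest tested probe set, with a black bar at each median; the grey band holds the middle 50% of all tested probe sets, points are spread vertically for sight only, and the last list had no tested gene on array B. Medians run from -0.16 to 0.01 on array A and from -0.13 to 0.21 on array B, and points of every list with over 4 genes lie on both sides of 0.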

How the data were processed

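Total RNA of 3 hindlimb and 3 forelimb samples was measured on Affymetrix MOE430 A and B arrays. Per the labels, the authors deposited linear MAS5.0 intensities; for forelimb 11 on array A no such note is given. Each A array had a 2% trimmed mean of 350.1 and each B array one of 70.0. No detection calls or scanner settings were used here. Each array was scaled to a trimmed mean of 500, values were taken as log2(signal + 32), and 64 control probe sets per design were left out. Symbols are those of the platform annotation, brought up to date by gene identifier with RefSeq's GRCm38.p6 table: 1 symbol for 20393 A and 14674 B probe sets (20364 and 14499 of them matched), several for 691 and 245, none for 1606 and 7656.

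Limbs were compared within each design in R 4.3.3 by the moderated two-sided test of limma 3.58.1 (trended eBayes, Benjamini-Hochberg, threshold 0.05); tables and figures used Python 3.11.15. Precision is limited by how many arrays there were, with a median SE of 0.16 over all tested A probe sets and 0.23 over B. The fit was also run on simulated data with known changes, drawn around the mean values of these arrays with variances taken from limma's fit to them.

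Members and lists were chosen with earlier results of these data known. Named were all member probe sets, the 2 genes of smallest p in each pathway list per design, Tbx5, Pitx1 and Tbx4, and the 5 genes closest in pattern. Cell type marker lists not given in the report are under the other observations. The GGAA search was added after the fixed motifs had no match. The settings varied were the pseudocount (1 or 100), the filter (none, or 200), scaling (quantile, or none), the trend, array weights, a block for neighbouring sample numbers and the omission of single samples.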

Additional observations from a re-analysis of the deposited data

How the results depend on the processing

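Under all 15 alternatives per design, 0 of the 9 genes' probe sets passed the adjusted threshold; the smallest limma adjusted p of any was 0.222, for Spry1 with array weights. At an unadjusted limma p under 0.05 there were 1 or 2 on array A and 0 to 3 on array B (0 without the trend, hindlimb 26 or forelimb 13, and 3 without forelimb 11). Spry1 kept its direction throughout (-0.63 to -0.44), as did Dusp6 (0.20 to 0.42), which was 0.42 without hindlimb 12. Of the 23 tested probe sets 9 kept their sign in every setting in which they were tested and 14 changed it in at least 1, 26 of 336 values in all. Not all were tested in each setting: with the values as deposited, 6 of the 12 B probe sets passed the filter. Under quantile normalization 2 changed, Spry4 1445669_at to 0.04 and Il17rd 1429893_at to -0.03. The other changes came when 1 sample was left out, with ranges of -0.10 to 0.16 (Spry2 1421656_at), -0.26 to 0.03, -0.23 to 0.14 and -0.21 to 0.04 (Spred1 on array A, in the order 1423160_at, 1423161_s_at, 1423162_s_at), -0.20 to 0.02 (Etv5 1450082_s_at) and -0.19 to 0.08 (Il17rd on array A). On array B they were -0.14 to 0.07 and -0.22 to 0.06 (Spry4 1440867_at and 1445669_at), -0.36 to 0.20, -0.02 to 0.02 and -0.27 to 0.02 (Spred1 1443652_x_at, 1452911_at and 1460116_s_at), -0.48 to 0.05 (Etv4), -0.24 to 0.06 (Etv5) and -0.09 to 0.11 (Il17rd). The median over the tested probe sets of these genes ran from -0.15 to -0.02 on array A and from -0.16 to -0.03 on array B with a sample left out.

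Over all probe sets, the 5 calls of array A became 1 without a filter, where more probe sets were tested, and 14 with array weights; the 2 calls of array B became 1 without a filter and 0 without the trend (871 at an unadjusted limma p under 0.05). Leaving out 1 sample gave 3 to 9 calls on array A (9 without hindlimb 12, 3 without any other sample) and 1 to 4 on array B (4 without hindlimb 12, 2 without forelimb 13, 1 without any other). The cause was not tested. A replicate block of consecutive sample numbers gave 8 and 4 calls, 0 of them among these genes. With it 1149 A and 1081 B probe sets had an unadjusted limma p under 0.05, against 850 and 949 in the main fit. The limbs share no number. Deviations of consecutive numbers correlated at 0.076 to 0.208 on array A and 0.002 to 0.048 on array B across probe sets. Other pairings were not correlated, so these values do not decide whether samples were paired. The main fit left pairing out.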

Other observations

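The 5 genes whose A-array pattern was closest to the mean deviation of the feedback and response genes over the 6 samples were Inhbe, Lrig1, St3gal6, Pold4 and Tmub1, with Pearson r of 0.982, 0.978, 0.975, 0.968 and 0.967 (Spearman rho 1.0, 0.943, 1.0, 0.943 and 0.829). The mean deviation was -0.06, -0.15 and 0.01 in hindlimb 12, 14 and 26 and 0.02, -0.01 and 0.18 in forelimb 11, 13 and 25. Of 8939 genes compared, 89 (0.996%) reached an r of 0.9, with 6 samples per value and arrays shared by all genes. Lrig1, a negative regulator of receptor tyrosine kinases, is on a pathway list above, with 289.1, 145.8 and 330.8 in hindlimb and 342.8, 288.5 and 598.0 in forelimb.

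Of the remaining cell type lists on array A, the summed signals overlapped between limbs for endothelium (1219.1 to 1391.6 in hindlimb, 1390.0 to 1418.3 in forelimb), macrophages and leukocytes (740.1 to 914.9 in hindlimb, 901.3 to 913.7 in forelimb, 1 of 4 passing the filter and Aif1 under 100 throughout), muscle (349.6 to 455.7 in hindlimb, 431.3 to 470.0 in forelimb, 2 of 4 passing, Myf5 and Pax3 under 100), tendon (168.4 to 204.7 in hindlimb, 170.5 to 275.9 in forelimb) and Schwann cell precursors and axons (537.5 to 702.7 in hindlimb, 680.9 to 762.6 in forelimb). The last sum held genes that parted the limbs in opposite directions: Ngfr had 176.2, 262.2 and 246.5 in hindlimb and 367.2, 402.2 and 408.6 in forelimb (-0.72 ± 0.16, limma adjusted p = 0.376), and Nefm had 103.5, 160.5 and 145.4 in hindlimb and 66.3, 77.8 and 64.7 in forelimb (0.72 ± 0.20, limma adjusted p = 0.599). Both were singled out after their values were seen. Myog and the mesenchyme marker Msx2 also had all hindlimb samples below all forelimb samples on array A. The same order was seen for Fcer1g, which did not pass the filter and reached 100 on 2 of 6 arrays only. Of all tested A probe sets 6.10% had this order. On array B the ridge and ectoderm markers summed to 2057.6 to 2911.0 in hindlimb and 2142.6 to 3424.5 in forelimb (5 of 5 passing), and those of mesenchyme to 25568.8 to 29603.1 in hindlimb and 25749.0 to 27045.7 in forelimb (3 of 3 passing). The other B lists overlapped as well: cartilage (1 gene, 12.1 to 170.7 in hindlimb, 9.3 to 173.5 in forelimb), tendon (1 gene, 567.8 to 1499.1 in hindlimb, 689.2 to 1465.5 in forelimb), muscle (1 of 2 passing, 72.8 to 160.7 in hindlimb, 116.4 to 269.3 in forelimb) and leukocytes (Ptprc alone, under 100 throughout, 6.4 to 37.9 in hindlimb, 51.4 at most in forelimb).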
